A study of Mus musculus with 8 samples.

Results

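The genes described here encode 9 proteins that carry long-chain fatty acids into mitochondria and start their oxidation there: Cpt1a, Cpt1b, Cpt2, Slc25a20, Acadm, Acadl, Acadvl, Hadha and Hadhb. They were chosen by name, as the genes of this pathway, and every probe set that the platform annotation gives to them was taken. This gave 16 probe sets for the 9 genes, out of 45101 probe sets on the array. In all, 18194 genes had a probe set annotated to 1 gene symbol. Of the 16 probe sets, 15 were annotated to 1 gene and 1 to 3 genes (Gm44502, Cpt1b and Chkb), so Cpt1b had no probe set of its own. The other 8 genes all passed the filter on dim genes and were tested.

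The RNA came from cultures of 3T3-L1 adipocytes, fat cells differentiated from a mouse fibroblast line, that were either controls or exposed to tunicamycin, a compound that blocks N-linked glycosylation and so causes unfolded protein to build up in the endoplasmic reticulum. There were 8 Affymetrix arrays. Control cells have 1 array at 4 h, 2 at 8 h and 1 at 12 h. Exposed cells have 1 at 4 h, 1 at 8 h and 2 at 12 h. The replicates are called biological in the labels, which give neither the dose nor what the control cells received, and all cells are of 1 line. Thus 4 of the 6 groups hold a lone array, which is assumed in the tests to vary like the 2 replicated groups.

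Long-chain fatty acids cross the inner mitochondrial membrane as carnitine esters. CPT1 on the outer membrane makes the ester, the carrier encoded by Slc25a20 exchanges it for free carnitine, and CPT2 on the matrix side turns it back into acyl-CoA. Each round of beta-oxidation then begins with an acyl-CoA dehydrogenase, of which very long-chain (Acadvl), long-chain (Acadl) and medium-chain (Acadm) forms take substrates of falling length. The mitochondrial trifunctional protein, built from the subunits encoded by Hadha and Hadhb, performs the remaining steps for long chains. White adipocytes are known mainly for storing and releasing fatty acids rather than for oxidising them, and PPARs and PGC-1 coactivators are known regulators of these genes.

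The regions upstream of 3 members are shown, because Cpt2 was the member with a call over all times and because Hadha and Hadhb, whose products work in 1 complex, start head to head. Both sequences are RefSeq's for GRCm38.p6, written 5′ to 3′, and capitals mark the GC box GGGCGG. The Cpt2 region holds the 250 bases before the annotated start, on the minus strand of chr4:107923590-107923839. The Hadha and Hadhb region is the whole stretch of 272 bases between the annotated starts, on the plus strand of chr5:30154981-30155252, with Hadha leading away to the left and Hadhb to the right. RefSeq annotates 0 genes within either stretch.
Cpt2: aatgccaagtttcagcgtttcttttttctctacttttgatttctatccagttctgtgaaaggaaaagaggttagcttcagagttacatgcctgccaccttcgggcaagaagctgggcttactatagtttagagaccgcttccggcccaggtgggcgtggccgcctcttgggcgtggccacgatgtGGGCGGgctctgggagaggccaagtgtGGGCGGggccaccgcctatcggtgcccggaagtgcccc
Hadha and Hadhb: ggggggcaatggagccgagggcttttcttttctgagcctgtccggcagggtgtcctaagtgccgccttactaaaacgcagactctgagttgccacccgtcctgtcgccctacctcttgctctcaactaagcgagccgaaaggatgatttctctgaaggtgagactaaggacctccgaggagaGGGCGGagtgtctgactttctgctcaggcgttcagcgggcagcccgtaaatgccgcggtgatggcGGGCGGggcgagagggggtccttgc

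A set of 7 motifs was searched on both strands in the 250 bases before each start, in the 8 members that had a window and in 32851 windows of the whole genome. The window of Cpt1a precedes a start inside the annotated gene, downstream of the gene's outermost start. A PPAR direct repeat, an extended ERR site (TCAAGGTCA), the endoplasmic reticulum stress response element and a C/EBP-ATF site (TGATGCAA) were in 0 of the 8 windows, and in 0.338%, 0.387%, 0.113% and 0.791% of all windows. The NRF1 core GCATGCGC was in the window of Acadm (2.26% of all windows) and the CCAAT box in that of Cpt1a (33.8%). The CCAAT box is also part of the stress response element. The GC box, added after the sequences had been seen, was in 6 of the 8 windows against 32.7% of all windows, those of Hadha and Hadhb overlapping each other. The windows of the members held 56.8% to 68% G and C, apart from Acadvl at 49.6%, against a median of 52.4% in all windows. The part of this base composition in the matches was not tested. These matches describe letters in a window and say nothing of binding.

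On average over the 3 times, Cpt2 was the 1 gene of the 8 tested that was called different between tunicamycin and control cells. Cpt2 fell to about 66.7% of control. The other 7 had log2 fold changes between -0.20 and 0.02, none of them called at an adjusted p under 0.05 (limma, adjusted p from 0.196 to 0.959). Such averages can hide effects at single times: Acadm was called lower at 8 h, and Acadvl had -0.34 at 8 h and 0.24 at 12 h. Thus 1 member was called lower and 0 higher, against 9.68% and 11.1% of all 10916 tested genes, so that the count among the members was near the background. The median log2 fold change was -0.15 for the 8 members and -0.01 for all tested genes, and 1 member had an unadjusted p under 0.05. For none of the 8 did the 4 tunicamycin arrays lie wholly on 1 side of the 4 controls (0 genes, against 10.1% of all tested genes wholly lower and 13.3% wholly higher).

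In the main fit, 95% intervals give a range for the average effect over the 3 times in the 7 uncalled genes. The lowest bound was -0.47 (Slc25a20) and the highest 0.27 (Acadvl), on the log2 scale. These bounds hold for quantile-normalized values of the probe set that stands for each gene. With the mean of all probe sets Hadhb was at -0.47 (SE 0.156) and Acadl at -0.20 (SE 0.276), so the bounds do not cover that setting. With the deposited scaling the SE of Cpt1a, Slc25a20 and Hadhb was 0.328, 0.328 and 0.271, around values of -0.45, -0.44 and -0.56.

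**Figure D1:**
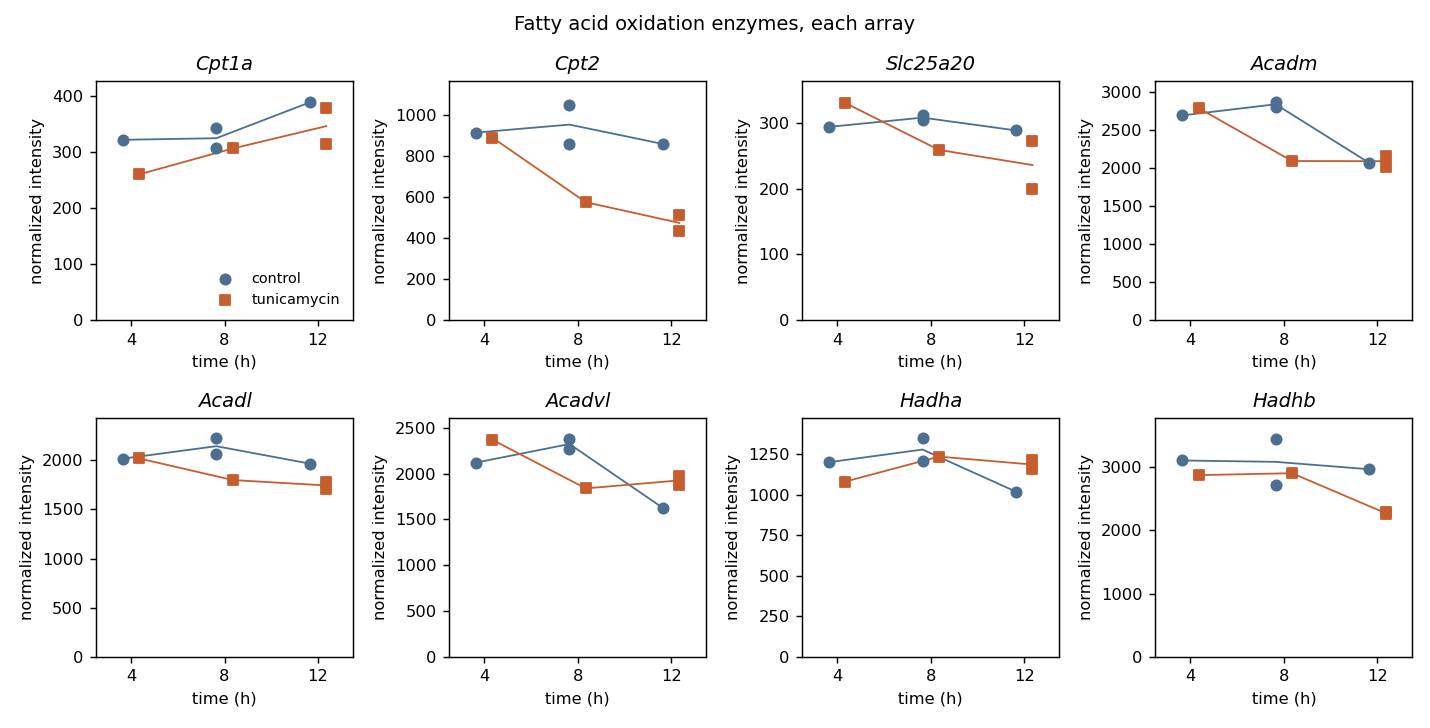
Normalized intensity (linear axis from 0) of the probe set that stands for each gene against time in hours. Each point is 1 array, circles for control and squares for tunicamycin, shifted sideways for clarity, and lines join the group means. The tunicamycin arrays of Cpt2 lie at 436 to 574 at 8 h and 12 h against 857 to 1047 in the controls of those times and at 889 against 913 at 4 h. Acadm lies at 2089 in the 8 h tunicamycin array against 2804 and 2865 in its controls.

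Cpt2, the inner membrane carnitine palmitoyltransferase, had a normalized intensity of 913 in the 4 h control, 857 and 1047 in the 8 h controls and 857 in the 12 h control. With tunicamycin it was 889 at 4 h, 574 at 8 h, and 511 and 436 at 12 h. The 4 h tunicamycin array lay within the range of the controls and the 3 later ones lay below all 4 controls. Over all times the means were 918 ± 89.7 in controls and 602 ± 199 with tunicamycin (SD, n = 4 arrays each), and the log2 fold change was -0.58 (SE 0.154, adjusted p = 0.026 by limma). By time it was -0.04 at 4 h (adjusted p = 0.971), -0.72 at 8 h (SE 0.169, adjusted p = 0.0206) and -0.86 at 12 h (SE 0.169, adjusted p = 0.0091), which leaves 60.7% and 55.2% of control at the later times.

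The other probe set of Cpt2 had the same pattern. It read 229 in the 4 h control, 243 and 272 in the 8 h controls and 256 in the 12 h control. With tunicamycin it read 240 at 4 h, 141 at 8 h, and 134 and 105 at 12 h, so that the 3 later arrays again lay below every control. In a fit over all 21719 probe sets above the filter, its log2 fold change was -0.85 at 8 h (adjusted p = 0.0459) and -1.09 at 12 h (adjusted p = 0.0178), and -0.69 over all times (SE 0.203, adjusted p = 0.0513). Over all times 1 of the 13 tested 1-gene probe sets of the members was called lower, that of Cpt2 described above (adjusted p = 0.0367 in this fit), against 7.09% of all probe sets tested. In the authors' deposited table the log10 ratio of the main probe set was -0.234 at 8 h (p = 7.49e-11) and -0.188 at 12 h (p = 2.37e-06), with values of -0.0762 (p = 0.224) and -0.202 (p = 0.00117) for the other one.

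The call of Cpt2 over all times rested on several single arrays. It was lost without control 8 h replicate 2 (adjusted p = 0.0701), the tunicamycin array of 8 h (0.165), the control of 12 h (0.163), or replicate 1 (0.055) or 2 (0.0594) of tunicamycin at 12 h, by limma in each case, with log2 fold changes of -0.43 to -0.59. It was also lost with the deposited scaling (adjusted p = 0.0721), without a filter (0.138) and without an intensity trend (0.0704). The 12 h call was kept in every fit that left out 1 array and could give it, with values of -0.74 to -0.97, and was lost with the deposited scaling (adjusted p = 0.862), no filter (0.144) or no trend (0.0742). The 8 h call was lost without control 8 h replicate 2 (-0.58, adjusted p = 0.118), with median centring (-0.62, adjusted p = 0.0852) and under the same 3 settings. The sign was negative in all 17 alternatives for the effect over all times.

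**Figure D2:**
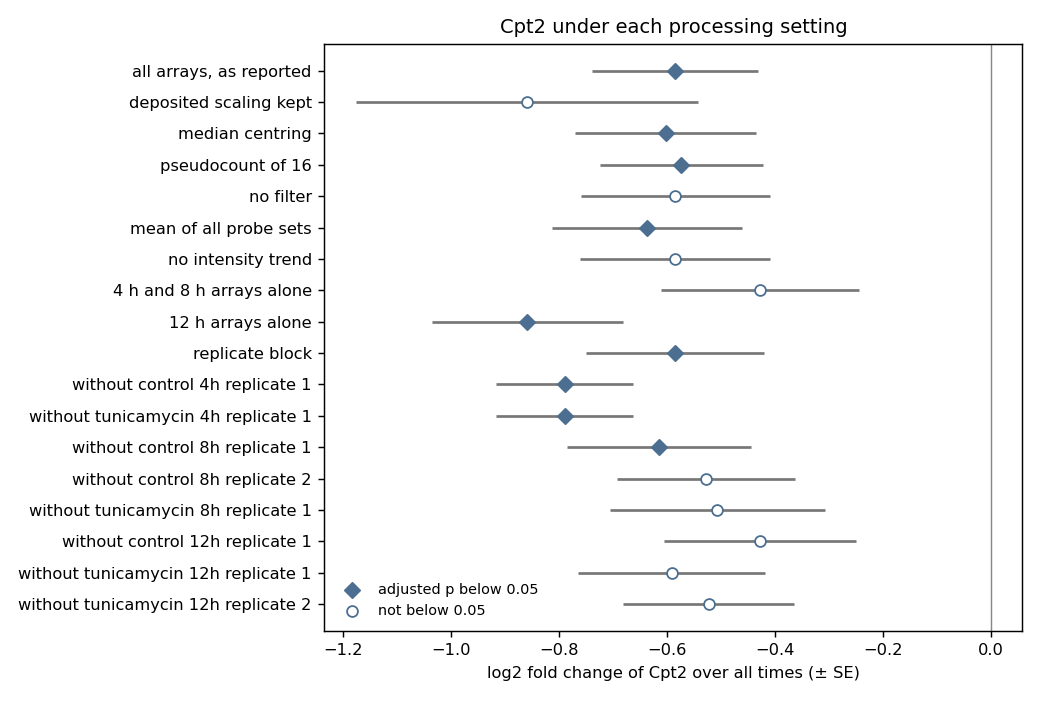
Log2 fold change of Cpt2 over all times (horizontal axis, bars ± SE) under each processing setting. Filled diamonds have an adjusted p below 0.05 and open circles do not, and all values lie below 0, from -0.86 to -0.43.

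Several measures of the cultures moved alongside Cpt2. Of 10 tested adipocyte markers 0 were higher and 6 lower over all times, led by Cebpa (-1.50), Pparg (-0.96) and Lipe (-0.86). Of all tested genes 11.1% were higher and 9.68% lower. The summed intensity of the 10 markers ran from 38718 to 45704 in the controls and from 31602 to 43735 with tunicamycin. Of the 10, 0 were at 0 on all arrays. The brightest, Fabp4, Adipoq and Lpl, weigh most in that sum. Adipoq read 8450 to 9746 in controls and 8016 to 9240 with tunicamycin, and Lpl 7453 to 8535 and 8218 to 8810. Fabp4 read 10780 in every control and 8255 to 10780 with tunicamycin. Quantile normalization gives equal ranks the same value, so these identical readings show an equal rank and not an equal signal. Of 10 fibroblast or preadipocyte markers 1 was higher (Fn1, 0.52) and 3 lower (S100a4 at -1.54, Pdgfra at -1.21 and Vim at -0.22), with sums of 36892 to 44273 and 30873 to 35634. The part of these in the value of Cpt2 was not tested, and in such bulk RNA fewer cells of a type and less RNA per cell cannot be told apart. The calls of Cebpa (adjusted p up to 0.0904), Fn1 (0.081) and Pdgfra (0.0791) were lost without tunicamycin at 8 h or control at 12 h, that of Lipe without the former (0.0827), that of Pparg without any 1 of the 6 later arrays (up to 0.233), and that of Vim without any 1 array (up to 0.198). Leaving out tunicamycin at 8 h put Pparg at -0.53 and Lipe at -0.57. Lipe was at -0.19 (adjusted p = 0.659) when its probe sets were averaged.

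Array quality also differed. The 3′ to 5′ signal ratio of beta-actin was 1.67 to 1.71 on the tunicamycin arrays of 8 h and 12 h. It was 1.51 to 1.57 on the controls of those times. The 4 h tunicamycin array stood apart at 2.81 against 1.82 in its control. The ratios of Gapdh and pyruvate carboxylase on that array were 1.11 and 43.5, against 0.936 and 13.1 in its control. At 8 h both were also higher with tunicamycin (0.971 against 0.857 and 0.873, and 19.8 against 12.1 and 15.3). At 12 h both were lower with tunicamycin (0.902 and 0.817 against 0.909, and 12.6 and 6.74 against 13.9). Between the spiked controls BioC and BioB the signal ratio was 2.55 to 2.82 at 4 h and 8 h and 0.905 to 0.995 at 12 h, which follows time and not treatment. Their part in the results was not tested. On the 12 h arrays alone Cpt2 had the value given above for 12 h, and on the 4 h and 8 h arrays alone it was at -0.43 (adjusted p = 0.197).

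The other parts of the carnitine shuttle did not pass the test at any time. Cpt1a, which encodes the CPT1 form common in liver and many other tissues and is held to set the pace of the pathway, had an intensity of 322 in the 4 h control, 343 and 308 in the 8 h controls and 389 in the 12 h control. With tunicamycin it had 261 at 4 h, 307 at 8 h, and 379 and 315 at 12 h. The groups overlapped: the 4 h tunicamycin array lay below all controls, the 8 h array was level with the lowest control, and the 12 h arrays lay within the range of the controls. The log2 fold change over all times was -0.17 (SE 0.117, 95% interval -0.44 to 0.09, adjusted p = 0.32). Both dimmer Cpt1a probe sets, dimmest at 64.2, were uncalled as well (-0.24 and -0.11 over all times). When its 3 probe sets were averaged, Cpt1a was at 0.09 at 8 h and at -0.43 at 12 h (adjusted p = 0.227). In the authors' deposited table its log10 ratio was -0.0959 at 4 h (p = 0.0271), and those of the dimmer probe sets were -0.16 (p = 0.0454) and -0.154 (p = 0.0229) at 12 h.

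Slc25a20, the carnitine-acylcarnitine carrier, had 294 in the 4 h control, 304 and 312 in the 8 h controls and 289 in the 12 h control, a narrow range. In exposed cells it had 331 at 4 h, 259 at 8 h, and 273 and 199 at 12 h. The later tunicamycin arrays lay below the controls and the 4 h one above them. The log2 fold change was -0.16 over all times (SE 0.143, adjusted p = 0.473) and -0.30 at 12 h (95% interval -0.77 to 0.16, adjusted p = 0.33), where the 2 tunicamycin arrays lay farther apart than the 2 controls of 8 h. The 12 h value was -0.53 (adjusted p = 0.0695) without tunicamycin replicate 1 and -0.08 without replicate 2, and the value over all times ran from -0.28 to -0.07 with 1 array left out. Its other probe set was at -0.25 over all times (adjusted p = 0.272). In the authors' deposited table the log10 ratio of Slc25a20 was -0.129 at 12 h (p = 0.0409), and that of the other probe set -0.133 at 8 h (p = 0.00872).

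Cpt1b encodes the CPT1 form known from muscle and brown fat. The probe set it shares with Gm44502 and Chkb read 10.1 to 18.4 on the controls and 10.8 to 27.3 with tunicamycin, close to the filter at 15.3, and its log2 fold change was 0.22 (adjusted p = 0.744). No value can be given to Cpt1b itself. Markers of striated muscle were dim too: 7 of 8 were below the filter, Myog was at 0 on all arrays, and the sum of the 8 was 96.5 to 139 in controls and 82.5 to 122 with tunicamycin. Of 5 brown or beige fat markers 2 were tested and 0 called: Cox7a1 read 133 to 204 and had -0.14 (adjusted p = 0.567), and Elovl3 read 11.4 to 35.8 and had 0.23 (adjusted p = 0.667). Ucp1 was at 0 on all arrays, Cidea and Dio2 were below the filter, and the sum of the 5 was 196 to 261 in controls and 175 to 257 with tunicamycin.

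Among the acyl-CoA dehydrogenases, Acadm was called lower at 8 h, and the other 2 genes were not called at any time. Acadm, the medium-chain form, had 2688 in the 4 h control, 2804 and 2865 in the 8 h controls and 2065 in the 12 h control. With tunicamycin it had 2786 at 4 h, 2089 at 8 h, and 2017 and 2158 at 12 h. The 8 h tunicamycin array was well below both 8 h controls, and the 12 h arrays lay on both sides of a control that was itself the lowest of the 4. Acadm was called lower at 8 h, at -0.44 on the log2 scale (SE 0.112, adjusted p = 0.0286), and had 0.01 at 12 h (95% interval -0.24 to 0.27) and -0.14 over all times (adjusted p = 0.375). The 8 h call rests on 1 tunicamycin array. It was lost without either 8 h control (adjusted p = 0.108 and 0.126), with the deposited scaling, with median centring (0.144), without a filter (0.114) or without an intensity trend (0.152). In the authors' deposited table the log10 ratio of Acadm was -0.113 at 8 h (p = 2.10e-06) and 0.0387 at 12 h (p = 0.144).

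Acadvl, the membrane-bound very long-chain form, had 2120 in the 4 h control, 2267 and 2379 in the 8 h controls and 1625 in the 12 h control. In exposed cells it had 2370 at 4 h, 1839 at 8 h, and 1972 and 1880 at 12 h. The tunicamycin array was above its control at 4 h, below both controls at 8 h and above the control at 12 h. The log2 fold changes were 0.16, -0.34 (adjusted p = 0.077) and 0.24 (adjusted p = 0.171), and 0.01 over all times (SE 0.115). That last value turned to -0.32 with the deposited scaling and -0.064 with median centring. In the authors' deposited table the log10 ratio of Acadvl was 0.0688 at 4 h (p = 0.0182), -0.0784 at 8 h (p = 0.00209) and 0.0909 at 12 h (p = 0.00102).

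Acadl, the long-chain form of rodents, had 2016 in the 4 h control, 2060 and 2226 in the 8 h controls and 1965 in the 12 h control. Exposed cells had 2018 at 4 h, 1799 at 8 h, and 1706 and 1781 at 12 h. The 3 later tunicamycin arrays lay below all controls by small margins. The log2 fold changes of -0.25 at 8 h (95% interval -0.52 to 0.02, adjusted p = 0.185) and -0.17 at 12 h (adjusted p = 0.338) did not pass the test, and the value over all times was -0.15 (SE 0.0869, adjusted p = 0.237). The other Acadl probe set lay at 0 to 8.45, below the filter. Averaging that dim probe set in gave 0.45 at 12 h (adjusted p = 0.518). For Acadl the authors' deposited table gave a log10 ratio of -0.0647 at 8 h (p = 0.00694).

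The trifunctional protein genes were not called at any time. Hadha, whose product holds the hydratase and hydroxyacyl-CoA dehydrogenase activities, had 1200 in the 4 h control, 1207 and 1348 in the 8 h controls and 1018 in the 12 h control. Exposed cells had 1080 at 4 h, 1234 at 8 h, and 1213 and 1157 at 12 h. Its log2 fold change over all times was 0.02 (SE 0.102, 95% interval -0.21 to 0.25), or -0.27 with the deposited scaling and -0.011 with median centring. The tunicamycin values thus lay within the range of the controls on all 4 arrays. For Hadha the authors' deposited table gave a log10 ratio of 0.0853 at 12 h (p = 0.00203).

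Hadhb, which encodes the thiolase subunit, had 3106 in the 4 h control, 2725 and 3443 in the 8 h controls and 2967 in the 12 h control. With tunicamycin it had 2874 at 4 h, 2905 at 8 h, and 2259 and 2287 at 12 h. Both 12 h arrays lay below every control, with a log2 fold change of -0.38 (95% interval -0.72 to -0.05, adjusted p = 0.101). The probe sets disagreed there: the other bright one, at 2034 to 2525, had 0.05 at 12 h and -0.31 at 8 h (adjusted p = 0.821 and 0.116). In the authors' deposited table they also differed in sign at 12 h, with log10 ratios of -0.174 (p = 0.00061) and 0.0417 (p = 0.0632). Over all times Hadhb was at -0.20 (SE 0.102, adjusted p = 0.196). It was at -0.09 without the 12 h control and at -0.47 (adjusted p = 0.078) when its 3 probe sets were averaged, which gave -0.70 at 12 h (adjusted p = 0.136). The third probe set of that average is dim, at 30.2 down to 0, and below the filter.

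**Figure D3:**
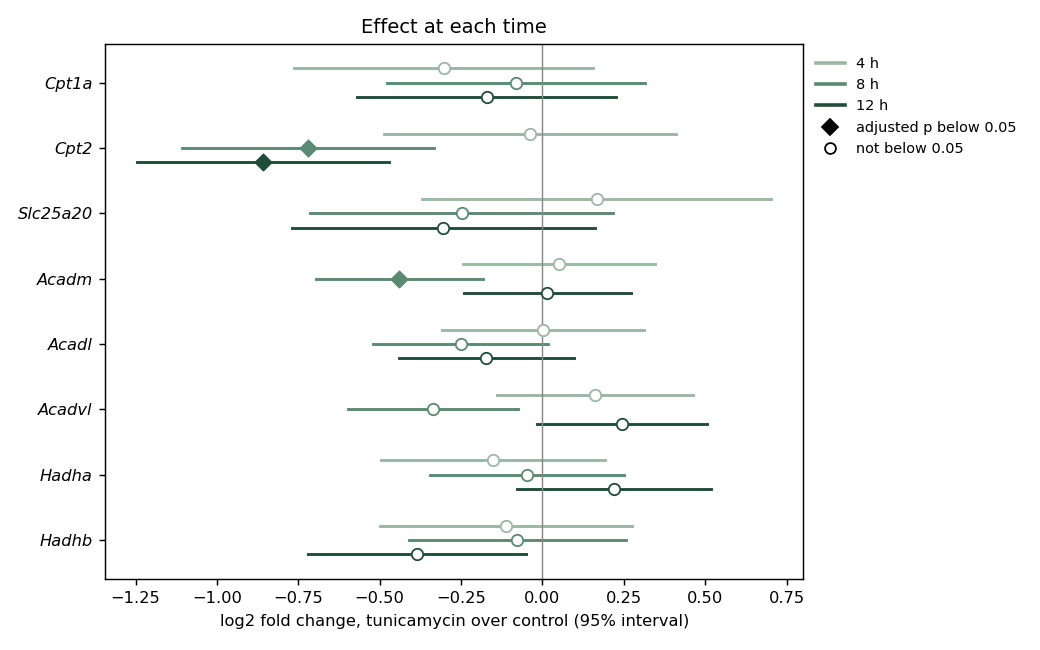
Log2 fold change of tunicamycin over control (horizontal axis) for each of the 8 tested genes at 4 h, 8 h and 12 h, with 95% intervals. Filled diamonds mark an adjusted p below 0.05: Cpt2 at 8 h (-0.72) and 12 h (-0.86) and Acadm at 8 h (-0.44).

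Counted by time, 0 of the 8 genes were called at 4 h in either direction (0 with an unadjusted p under 0.05 by limma; the lowest adjusted p was 0.643), where 0.0366% of all tested genes were lower and 0.357% higher. At 8 h, 2 were lower and 0 higher, against 8.95% and 9.42% of all genes, and 3 had an unadjusted p under 0.05. At 12 h, 1 was lower and 0 higher, against 10.9% and 10.1%, and 2 had an unadjusted p under 0.05. All 8 had a log2 fold change below 0 at 8 h, with a median of -0.25 (-0.02 for all genes). At 12 h 5 of 8 were below 0, with a median of -0.17 (-0.01 for all genes), and at 4 h 4 of 8. These comparisons at 8 h rest on the same 3 arrays for every gene, so the 8 signs are not independent.

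A change of the effect with time was examined by limma's F test. It was called for 0 of the 8 genes, against 1.72% of all tested genes. The lowest adjusted p was 0.169 (Acadvl), followed by Acadm (0.229) and Cpt2 (0.232), and these 3 had an unadjusted p under 0.05. For Cpt2 the effect at 12 h differed from that at 4 h by -0.82 on the log2 scale and that at 8 h by -0.68. For Acadm and Acadvl the 12 h effect lay 0.45 and 0.58 above the 8 h one.

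By the rule for likeness, 5 tested genes had effects at 4 h, 8 h and 12 h closest to those of Cpt2, by the root mean square difference of the 3 log2 fold changes. They were B3galnt1 (0.0403), Tapbp (0.0458), Ahnak2 (0.062), Kank2 (0.0623) and Chst11 (0.066), with 12 h log2 fold changes of -0.85 to -0.96. They were picked from 10916 genes for this likeness, so that it carries no test. Each of them lost its call over all times when either the 8 h tunicamycin or the 12 h control array was omitted (adjusted p from 0.0986 to 0.209).

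The rest of the mitochondrial pathway, with related genes such as Cpt1c, was examined as a list. Where each product acts in the cell was not checked. For the counts of this list and those below, 11.1% of all tested genes were higher and 9.68% lower over all times. At 8 h the shares were 9.42% and 8.95%, and at 12 h 10.1% and 10.9%. Of 23 other genes listed with mitochondrial acyl-CoA breakdown, all of which were tested, 0 were higher and 3 lower over all times. Their median log2 fold change was -0.08. Mcee, an epimerase for the product of odd-chain fatty acids, had -0.66 (SE 0.147, adjusted p = 0.0134). Crat, the carnitine acetyltransferase, fell from 465 ± 54.5 to 298 ± 32.1 (SD, n = 4 arrays each), or, on the log2 scale, -0.60 (adjusted p = 0.0121), and Cpt1c, the CPT1 form of brain, had -0.58 (adjusted p = 0.032) at the low mean of 83.5 in controls. The short-chain dehydrogenase Acads (0.08) and the electron transfer genes Etfa (-0.08), Etfb (-0.05) and Etfdh (-0.27, adjusted p = 0.111) were not called over all times. Etfdh was called lower at 8 h, where it read 1612 and 1629 in controls and 1166 with tunicamycin (-0.47, adjusted p = 0.0273), and had -0.31 at 12 h (adjusted p = 0.106). At 8 h 5 of the 23 were lower and at 12 h 2, with 0 higher at either time. The calls of all 3 were lost without the 8 h tunicamycin array (adjusted p = 0.121, 0.109 and 0.0959). That of Mcee was lost also without the 12 h control (0.0502) and lay at -0.44 without tunicamycin at 8 h, and that of Cpt1c without any 1 of the 6 later arrays (up to 0.187).

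Other genes make acyl-CoA from fatty acids or split it again. Of 9 tested synthetases, transporters and thioesterases 2 were higher and 1 lower, with a median of -0.04. Acot2, a mitochondrial acyl-CoA thioesterase, rose from 125 ± 26.8 to 540 ± 154 (SD, n = 4 arrays each), by 1.96 on the log2 scale (SE 0.197, adjusted p = 0.000453), and was the higher array at every time (1.39, 2.28 and 2.07 at 4 h, 8 h and 12 h). Its close paralogue Acot1 read 0.532 to 23.0 and was not tested, and whether the Acot2 probe set also detects paralogues was not tested. Acsl4, an acyl-CoA synthetase that prefers arachidonate, rose by 1.05 (SE 0.259, adjusted p = 0.0203), and the thioesterase Acot13 fell by 0.55 (adjusted p = 0.0239). Acsl4 lost its call without tunicamycin at 8 h (0.69, adjusted p = 0.182) or control at 12 h (0.0836), and Acot13 without either control of 8 h, tunicamycin at 8 h, control at 12 h or replicate 2 of tunicamycin at 12 h (up to 0.182; -0.32 without the 8 h tunicamycin array).

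In peroxisomes, which shorten very long chains, 1 of 13 tested genes was higher and 3 lower, with a median of -0.09. Abcd2, a transporter that brings very long-chain acyl-CoA into the peroxisome, fell from 356 ± 48.5 to 118 ± 92.3 (SD, n = 4 arrays each), with log2 fold changes of -0.58, -1.64 and -2.41 at 4 h, 8 h and 12 h and -1.63 over all times (SE 0.257, adjusted p = 0.00327). Unlike any member it was called in the F test between times (adjusted p = 0.0389). Scp2, the sterol carrier protein and thiolase, fell by 0.68 and Hsd17b4, the multifunctional enzyme, by 0.58, whereas Pecr, a trans-2-enoyl-CoA reductase, rose by 0.60 (adjusted p = 0.00864, 0.0461 and 0.0353). Scp2 lost its call without tunicamycin at 8 h (0.0938) or the 12 h control (0.055), Hsd17b4 without any 1 array except control 8 h replicate 1 (up to 0.199), and Pecr without any 1 of the 6 later arrays (up to 0.219; 0.38 without the 12 h control). When its probe sets were averaged, Hsd17b4 was at -0.38 (adjusted p = 0.075).

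Among regulators of the pathway, 1 of 22 tested genes was higher and 5 lower, with a median of -0.14. Ppargc1b, the coactivator PGC-1beta, fell from 363 ± 82.3 to 108 ± 65.4 (SD, n = 4 arrays each), or -1.71 on the log2 scale (SE 0.255, adjusted p = 0.00259), with -0.83 at 4 h, -2.27 at 8 h and -1.82 at 12 h. Pparg followed, as given above, and Prkag2, a subunit of the kinase AMPK, fell by 0.92 (adjusted p = 0.00606), whereas Prkab2, another AMPK subunit, rose by 0.68 (adjusted p = 0.0297). Ppara, the PPAR form best known for driving fatty acid oxidation in liver, was dim and had -0.26 (SE 0.423, adjusted p = 0.705). Ppargc1a had 0.51 over all times (SE 0.194, adjusted p = 0.089), an average of unlike values. It read 153 with tunicamycin against 74.5 in the control at 4 h, and 166 against 93.8 and 112 at 8 h. At 12 h it read 79.4 and 94.5 against 88.7. Acacb and Mlycd, which make and remove the CPT1 inhibitor malonyl-CoA, had -0.22 (adjusted p = 0.434) and -0.42 (adjusted p = 0.169). Prkag2 lost its call without the 8 h tunicamycin array (0.0714), and Prkab2 without any 1 array except control 8 h replicate 1 and tunicamycin 12 h replicate 2 (up to 0.134).

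Genes that PPARs are known to regulate outside beta-oxidation had 2 of 8 tested higher and 1 lower over all times, with a median of 0.09. At 8 h 2 were higher and 0 lower. At 12 h 4 were higher and 0 lower, with a median of 0.54. The 4 were Pdk4 (1.80), Plin2 (0.53), Cyp4b1 (2.16) and Angptl4 (0.71), the last 2 named after their values were seen. Cyp4b1 was dim in controls, at 8.31 in the lone 12 h control and 12.3 to 16.3 in the others. With tunicamycin it read 52.2 and 43.2 at 12 h, so the size of its 12 h value rests on 1 dim control array. Angptl4 was lower with tunicamycin at the earlier times, at 627 against 718 at 4 h and 662 against 819 and 807 at 8 h. At 12 h it read 1254 and 927 against 658. All 4 of these 12 h values rest on the same lone control array. Pdk4, the kinase that turns off pyruvate dehydrogenase, rose from 82.5 ± 7.03 to 235 ± 87.2 (SD, n = 4 arrays each), by 1.30 on the log2 scale (SE 0.174, adjusted p = 0.00171). The lipid droplet protein gene Plin2 rose by 0.47 (adjusted p = 0.00351) and the fatty acid receptor gene Cd36 fell by 0.39 (adjusted p = 0.0246). With the deposited scaling Plin2 was at 0.11 (adjusted p = 0.843), and Cd36 lost its call without control 8 h replicate 2, tunicamycin at 8 h or control at 12 h (up to 0.16). Of 3 tested genes of ketone body metabolism 0 were called over all times, with a median of -0.13, and 1 was called lower at 8 h and 1 at 12 h.

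Neighbouring pathways give the scale. Of 16 tested citric acid cycle genes 0 were higher and 3 lower, with a median of -0.04: Sdhd, a subunit of succinate dehydrogenase, had -0.62, Ogdh -0.38 and Sdhc -0.36. Of 16 genes of fatty acid synthesis 0 were higher and 6 lower (9.68% of all tested genes were lower), with a median of -0.30. They were led by Fasn (-1.01), Acss2 (-0.70) and Fads2 (-0.55). These 6 named genes lost their calls without the 8 h tunicamycin array (adjusted p from 0.0659 to 0.223). Those of Fasn, Acss2, Fads2 and Sdhc were lost without the 12 h control too (up to 0.125), and those of Ogdh and Sdhc without either 8 h control (up to 0.1). The call of Ogdh was lost also without either 4 h array or replicate 2 of tunicamycin at 12 h. That of Sdhc was lost also without either tunicamycin array of 12 h. On the 12 h arrays alone Ogdh was at -0.19. Sdhd lay at -0.40 without tunicamycin at 8 h. Acss2 was at -0.14 (adjusted p = 0.668) with the mean of its probe sets. Differences between these lists and the members were not tested.

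**Figure D4:**
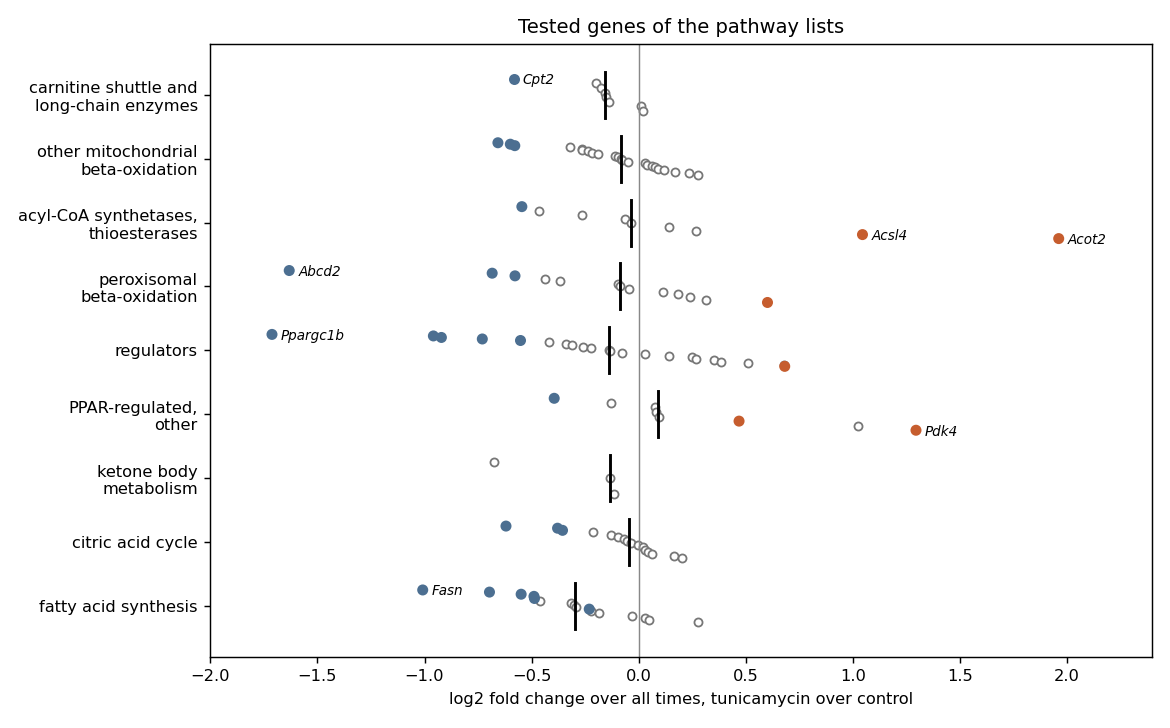
Log2 fold change over all times (horizontal axis) of the tested genes of each list, 1 point per gene, with black bars at the list medians. Filled points have an adjusted p below 0.05 (blue lower, orange higher). The members, in the top row, lie between -0.58 and 0.02, and larger values such as Acot2 (1.96), Ppargc1b (-1.71) and Abcd2 (-1.63) belong to other lists.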

How the data were processed

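The members and the gene lists were chosen with earlier results of these data known. The values analysed are the series' deposited intensity per probe set, on a linear scale; per the labels' protocols, Trizol RNA was made into biotinylated cRNA and hybridised to Affymetrix arrays, with software and scaling not stated there. Each array held 19.2% to 20.9% of values that were 0 or negative. Here arrays were quantile normalized, values below 0 were set to 0, and log2(value + 2.96) was taken, the pseudocount being percentile 10 of all positive values as deposited; folds of dim genes are understated on this scale. Array number limits the precision.

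Of 45101 probe sets 34958 had 1 gene symbol, 932 several and 9211 none, and 34754 gene IDs were matched to RefSeq (GRCm38.p6) for names. The brightest probe set stood for each of 18194 genes, and the 10916 at or above the 40th percentile (log2 4.19, intensity 15.3) were tested. limma 3.58.1 in R 4.3.3 (eBayes with an intensity trend, Benjamini-Hochberg, adjusted p under 0.05) fitted time plus treatment (4 residual and 5.89 prior degrees of freedom) and 1 mean per group (2 and 6.37). The residual of the additive model also holds differences of the effect between times. The models were tested on simulated data. Figures used matplotlib 3.10.9.

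The authors' deposited tables hold, per the file headers, log10 ratios with their p-value for every probe set and time, with direction and method not stated. They were read as tunicamycin over control, since they correlated with the effects here across genes at r = 0.816, 0.926 and 0.915, and entered no test. No pair of arrays was identical (0 pairs). All members were named, and from each other list up to 3 called genes a direction by size, plus the 5 genes most like Cpt2; any other gene with a value was named after its values were seen.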

Additional observations from a re-analysis of the deposited data

How the results depend on the processing

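In all, 6 alternatives in processing, 3 in the arrays or model used and the omission of each array were tried. The count of 1 member lower over all times became 0 with the deposited scaling, without a filter, without an intensity trend and on the 4 h and 8 h arrays alone, and 0 to 1 when 1 array was left out. The 2 members lower at 8 h became 0 with the deposited scaling, median centring, no filter or no intensity trend, and 0 to 2 when 1 array was left out; the 1 lower at 12 h became 0 with the deposited scaling, no filter or no intensity trend. Without a filter more genes are tested and the fit itself also changed, with the SE of Cpt2 over all times at 0.175 instead of 0.154. The cause of these losses was not tested. Members called higher stayed at 0 in all of these alternatives. All genes higher over all times numbered 1207, and 143 with the deposited scaling (which moved the median of all genes to -0.31), 794 with median centring, 702 with the mean of probe sets, 400 without a filter and 347 on the 4 h and 8 h arrays; genes lower numbered 1057, and 178 without a filter, 600 without a trend and 140 on the 4 h and 8 h arrays. Leaving out 1 array gave 270 to 1427 higher and 104 to 1523 lower. Of calls, 53.3% were higher, against 16.8% with the deposited scaling, 69.2% without a filter, 71.3% on the 4 h and 8 h arrays and 72.2% without the 8 h tunicamycin array. Arrays of 1 time share at most 1 replicate number across groups, so pairing could not be checked; with the replicate number as a block (replicate block) 976 genes were higher, 861 lower and 1 member lower.

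Uncalled members changed sign as follows, and the cause was not tested. Over all times Acadm was at 0.015 on the 12 h arrays alone (-0.229 to 0.0303 with 1 array left out). Acadvl was at -0.32 with the deposited scaling, -0.064 with median centring and -0.123 on the 4 h and 8 h arrays (-0.123 to 0.209). Hadha was at -0.267, -0.011 and -0.092 (-0.0918 to 0.0857). At 8 h Cpt1a was at 0.0896 with the mean of probe sets, Hadha at 0.0039 with median centring (-0.127 to 0.0319) and Hadhb at -0.245 to 0.0918 with 1 array left out. At 12 h Acadm was at -0.381 with the deposited scaling and -0.16 with median centring (-0.0338 to 0.0633), Acadl at 0.449 with the mean of probe sets, and Acadvl at -0.146 and Hadha at -0.122 with the deposited scaling. With 1 array left out, uncalled values over all times ran from -0.228 to -0.126 for Cpt1a, -0.212 to -0.0981 for Acadl and -0.267 to -0.0917 for Hadhb. Of 34 genes named by rule from other lists or for likeness, 31 lost their calls without a filter, 28 without the 8 h tunicamycin array and 18 with the deposited scaling, where Fn1 was at 0.18, Pecr at 0.306 and Prkab2 at 0.346; Acot2 and Pdk4 kept theirs in all 17 alternatives.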
